A study of Mus musculus with 6 samples.

Results

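Gpr39 and Lypd1 are a pair of mouse genes whose last exons lie on top of each other on opposite strands of chromosome 1, and they were read here as 1 locus. They were chosen by their symbols, 2 of 24972 genes in each deposited table, because the value counted for Gpr39 was far lower in both Ascl5 mutant genotypes than in Ascl5WT/WT. That value is therefore given as a description, with no test. RNA came from upper first molars at postnatal day 1, with 2 libraries each of Ascl5Mut/Mut (the Ascl5 mutation on both alleles), Ascl5Mut/WT (on 1 allele) and Ascl5WT/WT (on neither). The labels give no strain, no molecular description of the mutation and no number of animals or teeth per library, so the spread between the 2 libraries of a genotype may be technical. All libraries carry 1 batch label, but the library names number every mutant library below the wild-type ones, so that number and the genotype cannot be told apart. The authors deposited a table for each mutant genotype beside Ascl5WT/WT and normalized each on its own. The Ascl5WT/WT libraries are therefore shared by both comparisons and have slightly different values in each.

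GPR39 is a G protein-coupled receptor of the ghrelin receptor family that senses extracellular zinc and signals mainly through Gq and phospholipase C. LYPD1, also called LYNX2, is a small membrane-anchored protein of the Ly6/uPAR family that binds nicotinic acetylcholine receptors and is best known from neurons. Ascl5, also called AmeloD, is a basic helix-loop-helix transcription factor of dental epithelium, and factors of that class bind the E-box sequence CANNTG.

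In the GENCODE M21 annotation of the GRCm38 genome, Gpr39 runs from 125676995 to 125873862 on the plus strand of chromosome 1. Lypd1 runs from 125867622 to 125913101 on the minus strand. Their exons share 1202 bases, from 125872370 to 125873571. This stretch is 39.9% of all exon bases of Gpr39 and 17.1% of those of Lypd1. It holds 512 coding bases of Gpr39 and 233 coding bases of Lypd1, and 0 bases are coding in both, so coding bases of each gene lie opposite non-coding exon of the other.

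**Figure D1:**
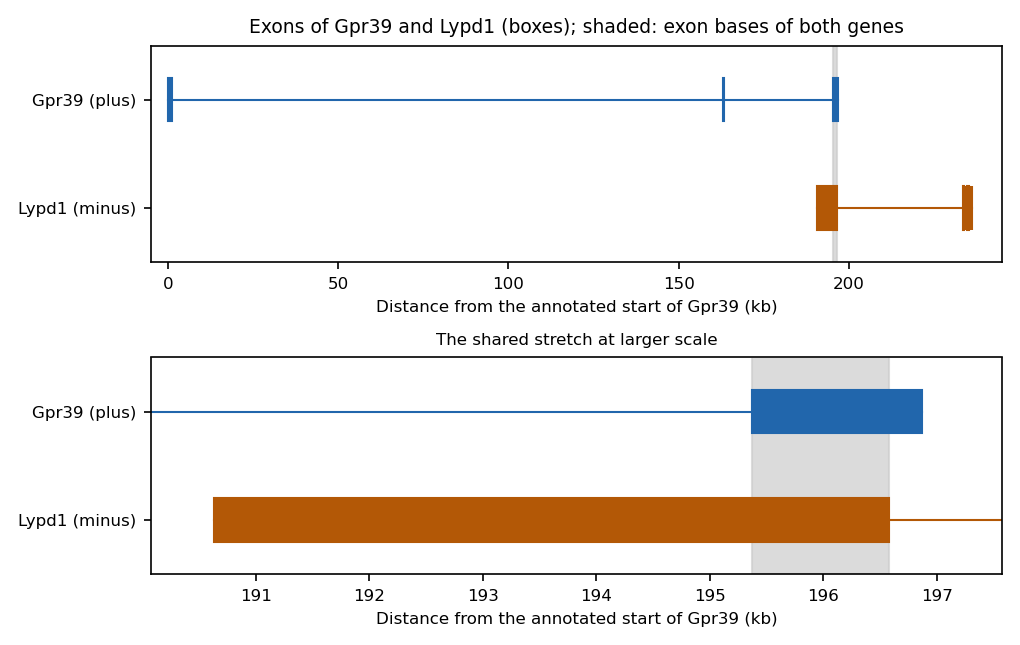
Exons (boxes) and introns (lines) of Gpr39 on the plus strand and Lypd1 on the minus strand, by distance in kb from the annotated start of Gpr39, with the lower panel at larger scale. The shaded 1202 bases are exon in both genes.

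The promoters are shown because Ascl5 belongs to an E-box-binding class of factors. The 250 bases before the RefSeq start of Gpr39 and before 2 of the 3 RefSeq starts of Lypd1 (GRCm38.p6) are printed in the direction of transcription, with every CANNTG in capitals. The window before the farthest upstream Lypd1 start contains an annotated exon and was not printed.
Gpr39 promoter, chr1:125676746-125676995, plus strand: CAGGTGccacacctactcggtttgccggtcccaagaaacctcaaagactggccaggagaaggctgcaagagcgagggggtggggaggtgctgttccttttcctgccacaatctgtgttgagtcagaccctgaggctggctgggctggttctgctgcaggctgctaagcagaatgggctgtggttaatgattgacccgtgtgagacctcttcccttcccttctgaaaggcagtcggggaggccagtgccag
Lypd1 promoter, middle start, chr1:125912215-125912464, minus strand: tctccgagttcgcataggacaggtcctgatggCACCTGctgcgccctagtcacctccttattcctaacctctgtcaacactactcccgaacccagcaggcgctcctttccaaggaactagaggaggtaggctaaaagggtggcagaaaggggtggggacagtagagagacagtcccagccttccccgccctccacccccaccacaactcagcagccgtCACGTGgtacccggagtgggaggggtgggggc
Lypd1 promoter, downstream start, chr1:125911388-125911637, minus strand: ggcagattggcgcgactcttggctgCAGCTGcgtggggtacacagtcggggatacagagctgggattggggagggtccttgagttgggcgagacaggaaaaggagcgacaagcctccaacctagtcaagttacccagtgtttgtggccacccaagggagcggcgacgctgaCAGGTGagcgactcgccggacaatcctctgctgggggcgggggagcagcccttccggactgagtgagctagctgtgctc
The Gpr39 window holds 1 match, at its far end, and each of the printed Lypd1 windows holds 2. CANNTG reads the same on both strands, so 1 search covers both. Of all 32851 RefSeq promoter windows of this length, 66.2% hold at least 1 CANNTG, and 13% hold CAGCTG, which occurs once in the downstream Lypd1 window. These matches describe the sequence only.

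The tables give normalized counts, and low values cluster at multiples of a step that appears to stand for 1 read, between 109 and 140 normalized counts depending on the library. Among values of at most 5 steps, 86.4% to 93.9% per library fell on a multiple of the step (tolerance 0.1 step), so whole reads were not recovered and read numbers below are estimates. Dividing the totals of 12304814 to 13118122 normalized counts by the step gave 90476 to 117399 estimated reads counted in genes per library. This is a small number, and the number of reads sequenced was not known here. Ascl5 itself was listed at 0 in all 6 libraries, so the targeted gene gives no check of the genotype labels.

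The value counted for Gpr39 was far lower in Ascl5Mut/Mut molars than in Ascl5WT/WT molars. Its normalized counts were 2100.5 and 2599 in Ascl5Mut/Mut molars, against 58793 and 58649 in Ascl5WT/WT molars. This rests on an estimated 15.0 and 19.1 reads in Ascl5Mut/Mut, against 541 and 489 in Ascl5WT/WT. Both mutant libraries lay far below both wild-type libraries. Such lower values without overlap were found for 21.8% of the 2336 genes whose table mean reached 1000 normalized counts. The means of Gpr39 were 2349.8 ± 353 in Ascl5Mut/Mut and 58721 ± 101.2 in Ascl5WT/WT (SD, n = 2 each), which is 4.0% of the wild-type level, or 25 times lower. On the log2(normalized count + 120) scale, where 120 is about 1 read, the difference was -4.58 (SE 0.15, mutant minus wild type). That SE comes only from the spread of 2 libraries a group, and the counting error of so few mutant reads was not added.

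In Ascl5Mut/WT molars the same value was also low, with more spread. Its normalized counts were 8334 and 1640.2 in Ascl5Mut/WT molars, against 59972 and 61194 in Ascl5WT/WT molars as scaled in that table. The estimated reads were 65.6 and 12 in Ascl5Mut/WT, against 543 and 491 in Ascl5WT/WT. Again the groups did not overlap, as for 19.5% of the 2370 genes that reached that mean there. The means were 4987 ± 4733 in Ascl5Mut/WT and 60583 ± 864 in Ascl5WT/WT (SD, n = 2 each), a level of 8.23% of wild type, and the log2 difference was -3.98 (SE 1.13). Leaving out Ascl5Mut/WT replicate 1 made it -5.11 and leaving out replicate 2 made it -2.84, so 1 library moves the size of this gap by more than 1.5 times in either direction.

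Placed side by side without a test, the order of the levels was Ascl5WT/WT first, then Ascl5Mut/WT replicate 1, with the remaining mutant libraries close together. Ascl5Mut/WT replicate 2 lay below both Ascl5Mut/Mut libraries, so the values of the mutant genotypes overlapped. By rank within a library, Gpr39 stood at place 1199 and 961 from the top in Ascl5Mut/Mut and at 228 and 1547 in Ascl5Mut/WT, against 7 and 13 in Ascl5WT/WT. It was thus among the genes with the highest values in both wild-type libraries. Scaling a whole library does not alter these ranks.

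By limma with an intensity trend over all tested genes (two-sided, Benjamini-Hochberg adjusted p under 0.05), 7 genes were called lower in Ascl5Mut/Mut, 0.3% of those tested, and Gpr39 is one of them. A further 13 genes, 0.557%, were called higher. In Ascl5Mut/WT 5 genes were called lower, 0.211% of those tested, again with Gpr39 among them, and 8 genes, 0.338%, were called higher. The locus was chosen for these calls, so nothing further is read from them. The pseudocount and filter behind them were taken from an earlier analysis of these data, which had compared the number of calls over several combinations. With a mean of at least 10 and a pseudocount of 1, the setting that analysis had planned, limma called 0 genes in either comparison, Gpr39 included, with 1280 genes for Ascl5Mut/Mut and 1055 for Ascl5Mut/WT at an unadjusted p under 0.05. Each Gpr39 call was also lost when either mutant library of its table was left out.

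Lypd1 was close to the limit of detection. It was listed at 556 and 0 normalized counts in Ascl5Mut/Mut, against 874 and 604 in Ascl5WT/WT, from an estimated 3.98 and 0 reads against 8.04 and 5.04. In Ascl5Mut/WT it was 756 and 134, against 894 and 632 in Ascl5WT/WT, from an estimated 5.95 and 0.98 reads against 8.10 and 5.07. The Ascl5Mut/Mut values lay below the Ascl5WT/WT values, as for 13.5% of the 12731 genes above 0 in that table. Those of Ascl5Mut/WT overlapped the Ascl5WT/WT values. A gene listed at 0 is compatible with up to 3 reads, which is 408 normalized counts in Ascl5Mut/Mut replicate 2, for counting error alone. A value under that limit cannot be set apart from the 604 of an Ascl5WT/WT library at this number of counted reads.

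The means of Lypd1 were 278 ± 393 in Ascl5Mut/Mut and 739 ± 191 in Ascl5WT/WT (SD, n = 2 each), and 445 ± 439 in Ascl5Mut/WT and 763 ± 185 in Ascl5WT/WT (SD, n = 2 each). The log2 differences were -1.57 (SE 1.27) and -0.89 (SE 0.92), so neither is large beside its error. Lypd1 did not reach the mean of 1000 in either table, so only 1 of the 2 genes passed the filter on low values.

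**Figure D2:**
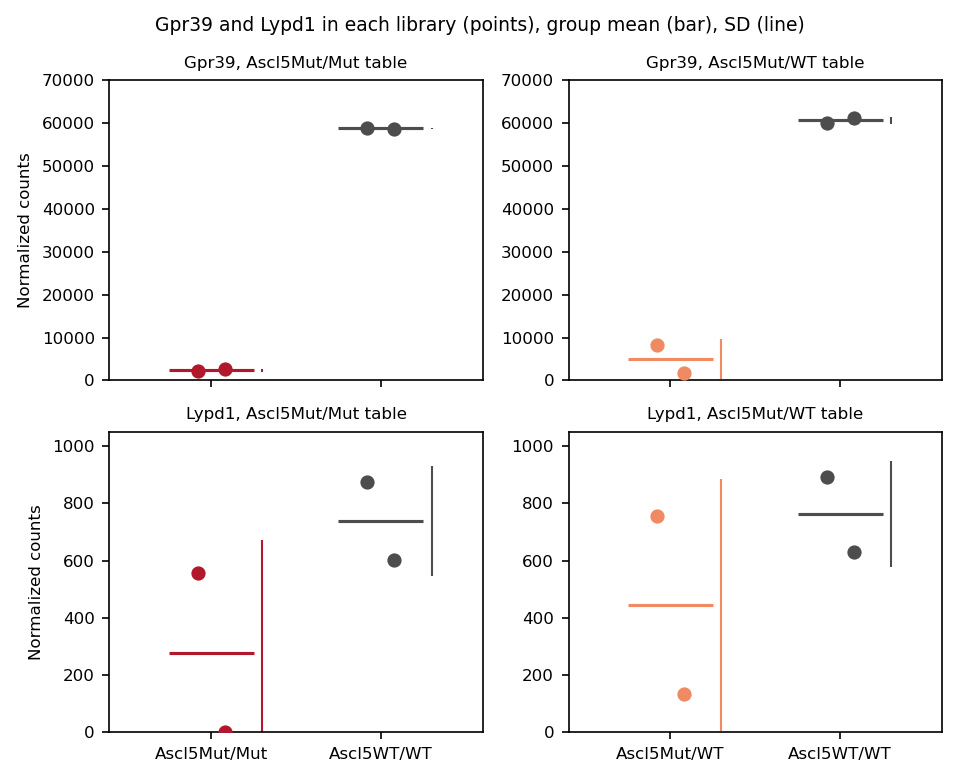
Normalized counts of Gpr39 (upper panels) and Lypd1 (lower panels) in each library, with group means as bars and SDs as lines cut at 0; left panels, Ascl5Mut/Mut against Ascl5WT/WT, right panels, Ascl5Mut/WT against Ascl5WT/WT. Gpr39 lies between 1640.2 and 8334 in the 4 mutant libraries and at 58649 or more in wild type, while Lypd1 is at most 894.

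In wild type nearly all of the value at the locus was assigned to Gpr39. The sum of both genes was 2656 and 2599 normalized counts in Ascl5Mut/Mut, against 59666 and 59253 in Ascl5WT/WT, a log2 difference of -4.44 (SE 0.02). It was 9090 and 1775 in Ascl5Mut/WT, against 60866 and 61826 in Ascl5WT/WT, a log2 difference of -3.88 (SE 1.14). The SE of 0.02 reflects only how close the 2 libraries of each group lay. The Ascl5Mut/Mut sums rest on an estimated 19.0 and 19.1 reads, so that SE overstates the precision. Lypd1 held so little of the wild-type sum that adding it could not close the gap, so the sum is no separate check.

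Lypd1 made up 20.9% and 0% of that sum in Ascl5Mut/Mut, against 1.46% and 1.02% in Ascl5WT/WT. In Ascl5Mut/WT it made up 8.31% and 7.58%, against 1.47% and 1.02% in Ascl5WT/WT. These mutant shares rest on 0 to 6 estimated reads of Lypd1, and with whole reads not recovered no interval is given. Per kilobase of exon, the Gpr39 level was 8.82 times that of Lypd1 in Ascl5Mut/Mut replicate 1 and 25.7 and 28.5 times in Ascl5Mut/WT. It was 157 and 227 times that of Lypd1 in the Ascl5WT/WT libraries.

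Which of the overlapping genes the reads came from cannot be read from these tables. The library kit keeps the strand of each transcript, but the strand setting used in counting is not given in the sources used here, and values by strand or by position within a gene were not analysed here. Pairs of this kind held much of the value in all libraries. Of 24434 genes with a gene model, 8.77% share at least 200 exon bases with a gene on the opposite strand, and they held 35.0% to 42.8% of the total value per library. Of the 25 genes with the highest means, 15 in the Ascl5Mut/Mut table and 16 in the Ascl5Mut/WT table were such genes, a count made after the values were seen. Protein-coding genes in such pairs were listed at 0 in 33.3% to 42.3% of cases per library, against 66.4% to 70.9% of protein-coding genes with no opposite exon overlap.

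Such pairs whose values summed to at least 1000 were counted in each library. In 46.4% to 51.3% of them, 1 gene held over 90% of the sum. Gpr39 did so in every library except Ascl5Mut/Mut replicate 1, where Lypd1 made up 20.9%. Copg2, a subunit of the coatomer vesicle coat, had 196278 and 143155 normalized counts in Ascl5Mut/Mut, against 52675 and 67446 in Ascl5WT/WT, and 133414 and 110745 in Ascl5Mut/WT, against 53645 and 70259. Mest, an imprinted gene of embryonic mesenchyme that overlaps Copg2 by 912 bases, had 4987 and 5059 in Ascl5Mut/Mut, against 6990 and 6189 in Ascl5WT/WT, and 6979 and 5823 in Ascl5Mut/WT, against 6907 and 6256. Copg2 thus held most of that pair in every library. The pair of Dlx1, whose values are given below, and Dlx1as was more even, and Dlx1as held the larger part in all 4 mutant libraries. Dlx1as had 3897 and 1241 in Ascl5Mut/Mut, against 27823 and 10656 in Ascl5WT/WT, and 5177 and 8403 in Ascl5Mut/WT, against 28308 and 11090. The model Gm11532 had 2113 and 29497 in Ascl5Mut/Mut, against 869884 and 389895 in Ascl5WT/WT, and 356431 and 417754 in Ascl5Mut/WT, against 885114 and 405796. Sp6, the enamel epithelium transcription factor that overlaps it by 3329 bases, had 0 and 0 in Ascl5Mut/Mut, against 1525 and 0 in Ascl5WT/WT, and had 506 and 558 in Ascl5Mut/WT, against 1518 and 0. Whether reads of Lypd1 transcripts were counted for Gpr39 was not tested, and the lower value is given as that of the locus. The unknown strand setting concerns every gene counted, so the values of markers and gene lists below carry the same limit.

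Summed markers of other cell types also differed between the genotypes. Of 8 marker lists for other cells that a dissected molar could hold, 5 summed higher in both Ascl5Mut/Mut libraries than in both Ascl5WT/WT libraries. In Ascl5Mut/WT 4 did so. For single genes such a gap was found in 13.3% of all genes above 0 for Ascl5Mut/Mut and 14.5% for Ascl5Mut/WT. No such share was worked out for sums over lists. The 8 markers of oral mucosa, keratins and cornified proteins of the mouth lining, of which 0 were at 0 in all libraries, summed to 19240 and 127480 in Ascl5Mut/Mut, against 219 and 540 in Ascl5WT/WT. The same list summed to 14446 and 48660 in Ascl5Mut/WT, against 222 and 562 in Ascl5WT/WT. All mutant libraries lay above both wild-type libraries. Of these genes Krt4, a mucosal keratin, had 5922 and 38281 in Ascl5Mut/Mut, against 109 and 0 in Ascl5WT/WT, and 8146 and 15031 in Ascl5Mut/WT, against 111 and 0. Its partner keratin Krt13 had 5344 and 38097 in Ascl5Mut/Mut, against 0 and 306 in Ascl5WT/WT, and 3636 and 17812 in Ascl5Mut/WT, against 0 and 319. limma called both in both comparisons (adjusted p = 0.0151 and 0.000261 for Krt4, 0.0271 and 0.0062 for Krt13). Rptn, a cornified envelope protein, had 3948 and 17423 in Ascl5Mut/Mut, against 0 and 0 in Ascl5WT/WT, and 1144 and 5991 in Ascl5Mut/WT, against 0 and 0. It was called for Ascl5Mut/Mut and not for Ascl5Mut/WT (limma adjusted p = 0.0403 and 0.594).

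The 8 osteoblast markers, again with 0 at 0 in all libraries, summed to 35456 and 27909 in Ascl5Mut/Mut, against 2060 and 7971 in Ascl5WT/WT, and to 26787 and 11072 in Ascl5Mut/WT, against 2150 and 8325. Ibsp and Spp1 made up most of the mutant sums. Neither was called for Ascl5Mut/Mut (limma adjusted p = 0.143 and 0.103) or for Ascl5Mut/WT (0.252 and 0.369). Runx2 went the other way in Ascl5Mut/Mut, at 0 and 141, against 1405 and 540 in Ascl5WT/WT. Sp7 overlapped there, and the rest of the list lay above wild type. The 6 osteoclast markers, of which Ocstamp and Dcstamp were at 0 throughout, summed to 17042 and 11955 in Ascl5Mut/Mut, against 430 and 120 in Ascl5WT/WT, and to 7838 and 2169 in Ascl5Mut/WT, against 441 and 126. Most of this was Ctsk, the collagen-degrading protease of osteoclasts, with 11106 and 7277 in Ascl5Mut/Mut, against 109 and 120 in Ascl5WT/WT, and 4831 and 1338 in Ascl5Mut/WT, against 111 and 126. Ctsk was called for Ascl5Mut/Mut and not for Ascl5Mut/WT (limma adjusted p = 0.0151 and 0.461). The 7 endothelial markers, of which Emcn and Tie1 were at 0 throughout, summed to 1997 and 1538 in Ascl5Mut/Mut, against 486 and 839 in Ascl5WT/WT, and to 1296 and 977 in Ascl5Mut/WT, against 467 and 850. In Ascl5Mut/WT, Kdr and Tek lay above wild type, while Cdh5 lay below it, at 0 and 138, against 223 and 493. Kdr, at 278 and 297, against 123 and 94, and Tek, at 256 and 405, against 0 and 0, were within the value of 3 reads. Of all genes above 0 there, 14.5% lay above and 11.8% below wild type without overlap. Myeloid markers, with 1 of 7 at 0 throughout (C1qb), summed to 2373 and 2613 in Ascl5Mut/Mut, against 1754 and 596 in Ascl5WT/WT, and overlapped in Ascl5Mut/WT at 509 and 2588, against 1801 and 618. Among the myeloid genes only Csf1r lay above wild type without overlap in Ascl5Mut/Mut. The part of these differences in the Gpr39 result was not tested. In whole tissue, fewer cells of a type and less RNA per cell cannot be told apart.

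Neuronal markers, listed because LYPD1 is best known from neurons, overlapped between the groups of each table. The 9 genes, with Snap25 at 0 throughout, summed to 1592 and 2243 in Ascl5Mut/Mut, against 1906 and 3873 in Ascl5WT/WT, and to 2911 and 1403 in Ascl5Mut/WT, against 1951 and 4012. The 6 Schwann cell markers overlapped too, at 4201 and 1798 in Ascl5Mut/Mut, against 2199 and 1572 in Ascl5WT/WT, and 759 and 1740.2 in Ascl5Mut/WT, against 2243 and 1637. So did the 8 skeletal muscle markers, at 109094 and 5093 in Ascl5Mut/Mut, against 655 and 16169 in Ascl5WT/WT, and 34012 and 8536 in Ascl5Mut/WT, against 667 and 16823.

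Among markers of the labelled tissue, the 12 dental epithelium genes summed to 8655 and 29512 in Ascl5Mut/Mut, against 44263 and 34225 in Ascl5WT/WT, and to 23173 and 58992 in Ascl5Mut/WT, against 45031 and 35910 in its table. These sums were lower in Ascl5Mut/Mut and overlapped in Ascl5Mut/WT. The lower sum rests on Trp63, at 1049 and 5829 in Ascl5Mut/Mut, against 21134 and 13757 in Ascl5WT/WT (limma adjusted p = 0.145). Without Trp63 the summed groups overlap. Krt14, the other large member, overlapped at 6362 and 20549, against 14740 and 13227. Shh, Krt5, Epcam and Sostdc1 also lay below wild type in Ascl5Mut/Mut, and the rest overlapped. Of all genes above 0 in that table, 13.5% lay lower without overlap. Among Shh, Krt5, Epcam and Sostdc1 only Krt5 was tested there, and it was not called (limma adjusted p = 0.594). Epcam, at 0 and 0, against 217 and 120 in Ascl5WT/WT, was within the value of 3 reads. The 11 dental mesenchyme genes summed to 3189 and 2627 in Ascl5Mut/Mut, against 52142 and 55873 in Ascl5WT/WT, and to 23153 and 11859 in Ascl5Mut/WT, against 53162 and 58202, but most of the wild-type value was Dlx1. Without Dlx1 those sums were 841 and 2071 in Ascl5Mut/Mut, against 4918 and 2537 in Ascl5WT/WT, and 18495 and 9795 in Ascl5Mut/WT, against 5046 and 2616. That higher sum in Ascl5Mut/WT lay mostly with Dspp, a dentin matrix gene made by odontoblasts, at 14045 and 8122 in Ascl5Mut/WT, against 336 and 0 in Ascl5WT/WT (limma adjusted p = 0.000399). In the Ascl5Mut/Mut table Dspp was at 0 and 0 in Ascl5Mut/Mut, against 327 and 0. With both genes left out, a step chosen after the values were seen, the sums were 841 and 2071 in Ascl5Mut/Mut, against 4591 and 2537 in Ascl5WT/WT. They overlapped in Ascl5Mut/WT at 4450.1 and 1673, against 4711 and 2616. In both lists every gene was above 0 in at least 1 library. Pax9, a defining factor of tooth mesenchyme, was above 0 in 1 library only. The part of these differences, too, in the Gpr39 result was not tested.

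The 5 genes whose profile over the 6 libraries was nearest to that of Gpr39 were Celf5, Dlx1, Ino80, Aldh1b1 and Glyctk. Nearness is the root mean square difference between profiles of log2(normalized count + 120), each centred on its own mean, among 2028 other genes whose mean reached 1000 in both tables. It was 0.37 for Celf5, 0.78 for Dlx1, 0.92 for Ino80, 0.93 for Aldh1b1 and 0.96 for Glyctk, against a median of 2.18 over all those genes. Profiles of this kind were selected for their likeness, so they get no test.

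Celf5, an RNA-binding protein, came nearest. It had 0 and 0 in Ascl5Mut/Mut, against 2963 and 1906 normalized counts in Ascl5WT/WT, and stood at 507 and 0 in Ascl5Mut/WT, against 3007 and 1979. Like Gpr39, it was higher in Ascl5Mut/WT replicate 1 than in the other mutant libraries. Dlx1, a homeobox gene of jaw mesenchyme, had 2348 and 556 in Ascl5Mut/Mut, against 47224 and 53336 in Ascl5WT/WT. In Ascl5Mut/WT it had 4658 and 2064, against 48116 and 55586 in Ascl5WT/WT. Dlx1 overlaps the antisense gene Dlx1as by 335 bases.

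Aldh1b1, a mitochondrial aldehyde dehydrogenase, had 0 and 0 in Ascl5Mut/Mut, against 4923 and 3389 in Ascl5WT/WT, and had 126 and 281 in Ascl5Mut/WT, against 4945 and 3482. Ino80, a chromatin remodelling ATPase, had 140 and 0 in Ascl5Mut/Mut, against 1196 and 2769 in Ascl5WT/WT, and 252 and 136 in Ascl5Mut/WT, against 1222 and 2894. Glyctk, glycerate kinase, had 138 and 279.99 in Ascl5Mut/Mut, against 1309 and 2478 in Ascl5WT/WT, and 127 and 0 in Ascl5Mut/WT, against 1338 and 2592. The exons of Glyctk overlap the microRNA gene Mir135a-1 on the opposite strand by 90 bases. These 5 genes lie on chromosomes 10, 2, 2, 4 and 9 in the order first named, none on chromosome 1.

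**Figure D3:**
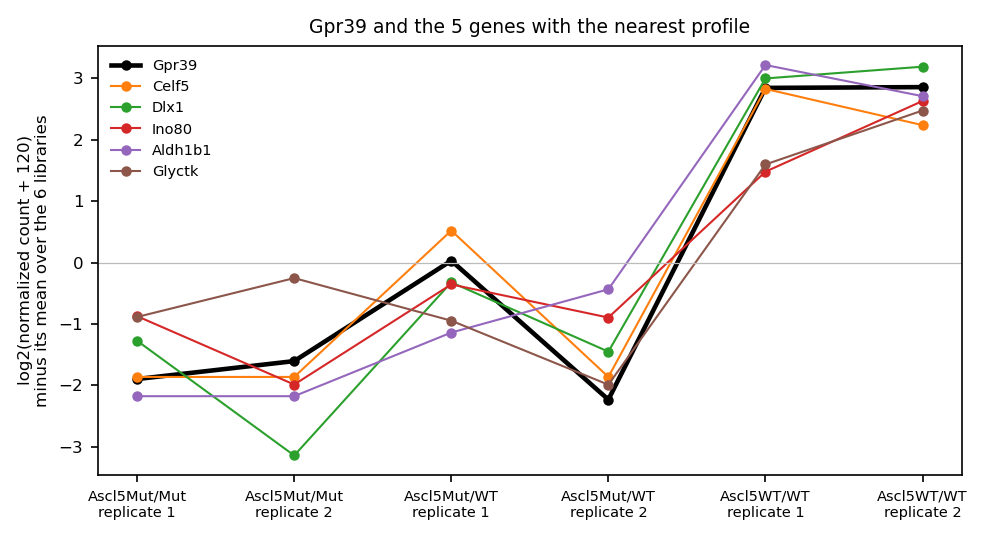
Profiles of Gpr39 (black) and the 5 nearest genes over the 6 libraries, as log2(normalized count + 120) minus the mean of each gene; values of the wild-type libraries are averaged over both tables. The genes are lower in all 4 mutant libraries than in both wild-type libraries, and Celf5, at a distance of 0.37, follows Gpr39 most closely. Values of 0 in Celf5, Ino80, Aldh1b1 and Glyctk are set by the pseudocount of 120.

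Ascl5 lies 10.1 Mb from the end of Lypd1 on the same chromosome, from 136050804 to 136051370 on the plus strand. Genes beside the locus had low values, and their log2 differences were all smaller in size than that of Gpr39. Nckap5, on the minus strand 0.519 kb beyond Lypd1, stood at 0 in all 4 mutant libraries, against 0 and 479.7 normalized counts in the Ascl5WT/WT libraries of the Ascl5Mut/Mut table and 0 and 498 in those of the Ascl5Mut/WT table. Slc35f5, 81.2 kb before Gpr39, was listed at 0 in every library. Actr3, a subunit of the actin-nucleating Arp2/3 complex 241 kb before Gpr39, was the only gene within 1 Mb that reached the filter. It had 2221 and 1065 in Ascl5Mut/Mut, against 2203 and 2079.8 in Ascl5WT/WT, a log2 difference of -0.44 (SE 0.66, limma adjusted p = 0.827). In Ascl5Mut/WT it had 502 and 2132, against 2241 and 2164 in Ascl5WT/WT, a log2 difference of -0.97 (SE 0.73, limma adjusted p = 0.695), with both mutant libraries below both wild-type ones.

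Farther out, Mgat5, a glycosyltransferase 1.29 Mb beyond Lypd1, had 705 and 688 in Ascl5Mut/Mut, against 108 and 355 in Ascl5WT/WT, and 127 and 0 in Ascl5Mut/WT, against 111 and 372. Its Ascl5Mut/Mut values lay above wild type, as for 22% of all tested genes, on few reads. Tmem163, a zinc-binding membrane protein, had 994 and 0 in Ascl5Mut/Mut, against 645 and 120 in Ascl5WT/WT, and 1005 and 276 in Ascl5Mut/WT, against 659 and 125. Dpp10, 1.63 Mb before Gpr39, was above 0 only in Ascl5WT/WT replicate 2, at 239.9 in the Ascl5Mut/Mut table and 249 in the Ascl5Mut/WT table.

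Between Lypd1 and Ascl5 lie 123 genes of the tables, of which 12 were tested for Ascl5Mut/Mut and 10 for Ascl5Mut/WT. limma called 0 of them in either comparison, against 0.856% and 0.549% of all tested genes. In each comparison 1 had an unadjusted p under 0.05, against 11.2% and 8.73% of all tested genes, which is near that share. Their median log2 difference was 0.21 for Ascl5Mut/Mut, against -0.02 over all tested genes, and 0.27 for Ascl5Mut/WT, against 0.04.

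**Figure D4:**
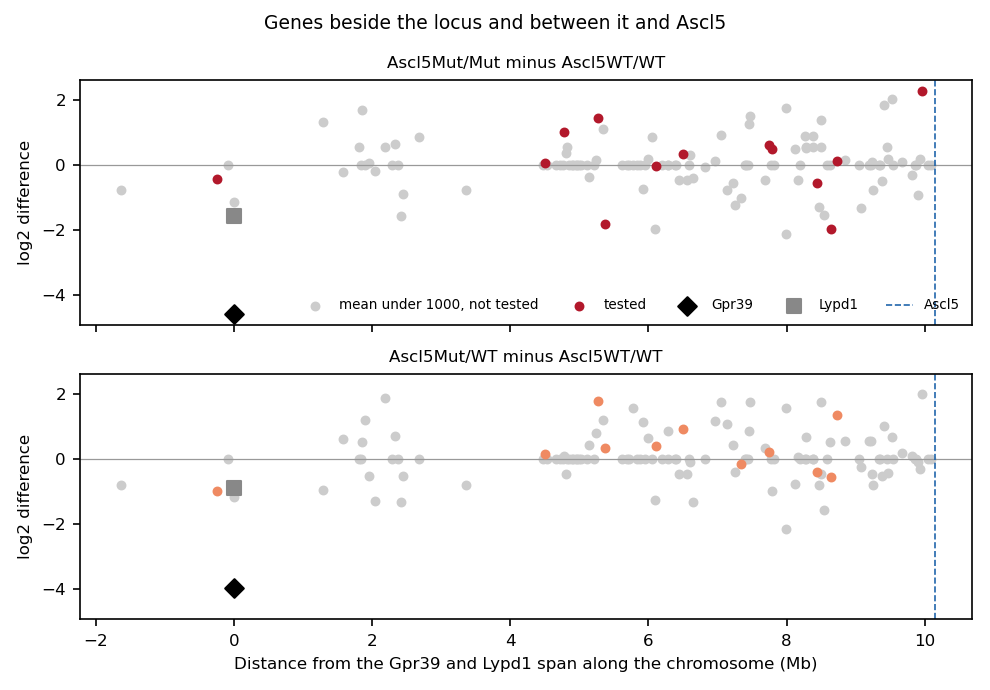
Log2 difference of normalized counts (pseudocount 120, mutant minus wild type) for the 3 nearest genes on each side of the locus and the 123 genes between it and Ascl5 (dashed line), by distance in Mb. Gpr39 (diamond), at -4.58 and -3.98, lies below every other gene shown in both panels.

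Genes of zinc handling, the ion that GPR39 senses, were measured at few reads. Of those that could be tested none was called. Of 29 zinc transporters, metallothioneins and their regulator, 18 were above 0 in at least 1 library of each table. limma called 0 of the 3 tested for Ascl5Mut/Mut and 0 of the 7 tested for Ascl5Mut/WT. Calls were made for 0.856% and 0.549% of all tested genes. An unadjusted p under 0.05 was reached by 0 of these genes, against 11.2% of all tested genes for Ascl5Mut/Mut and 8.73% for Ascl5Mut/WT. The median log2 differences of the tested genes were -0.29 and -0.14. Mtf1, the zinc-sensing transcription factor of metallothionein genes, had 4064 and 3917 in Ascl5Mut/Mut, against 7101 and 3371 in Ascl5WT/WT, and 5446 and 4618 in Ascl5Mut/WT, against 7213 and 3502. Slc30a7, a transporter that loads zinc into the Golgi, had 4730.2 and 2128 in Ascl5Mut/Mut, against 3076 and 4654 in Ascl5WT/WT, and 3386 and 2146 in Ascl5Mut/WT, against 3124 and 4834. The groups of both genes overlapped in both tables.

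Most of the list did not reach the filter, and the widest gaps lay there. Of the 18 genes above 0, 5 were lower in both Ascl5Mut/Mut libraries than in both Ascl5WT/WT libraries and 0 were higher, against 13.5% lower and 13.3% higher of all genes above 0 in that table. In Ascl5Mut/WT 0 of 18 were lower and 3 were higher, against 11.8% and 14.5% of all genes above 0. The following 3 genes were picked after their values were seen. Slc30a1, which exports zinc from the cell, was at 0 and 0 in Ascl5Mut/Mut, against 1287 and 1829 in Ascl5WT/WT, and overlapped in Ascl5Mut/WT at 1389.8 and 1482, against 1318 and 1915. Slc39a8, a zinc importer, had 0 and 537 in Ascl5Mut/Mut, against 870 and 1583 in Ascl5WT/WT, and overlapped in Ascl5Mut/WT at 630.1 and 1081, against 885 and 1648. Slc39a10, also an importer, had 0 and 0 in Ascl5Mut/Mut, against 216 and 121 in Ascl5WT/WT, all within the value of 3 reads, and 0 and 266 in Ascl5Mut/WT, against 223 and 127. None of these was tested for Ascl5Mut/Mut.

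Slc39a7, which releases zinc from the endoplasmic reticulum, did not reach the filter for Ascl5Mut/Mut. It had 429 and 763 in Ascl5Mut/Mut, against 1254 and 1321 in Ascl5WT/WT, and 2208 and 2548 in Ascl5Mut/WT, against 1273 and 1371. Its values thus lay below wild type in 1 mutant genotype and above it in the other. In Ascl5Mut/WT its log2 difference was 0.79 (SE 0.62, limma adjusted p = 0.71).

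Of the 8 other genes of the ghrelin receptor family list, 0 were above 0 in any library of the Ascl5Mut/Mut table and 2 were in the Ascl5Mut/WT table. Ghsr, the ghrelin receptor, had 127 and 683 in Ascl5Mut/WT, against 0 and 0 in Ascl5WT/WT. Trhr2, a receptor for thyrotropin-releasing hormone, had 253 and 0 in Ascl5Mut/WT, against 0 and 0 in Ascl5WT/WT. These genes were thus at or near the value of a few reads.

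Of 29 genes of G protein and phospholipase C signalling, 27 were above 0 in the Ascl5Mut/Mut table and 26 in the Ascl5Mut/WT table. limma called 0 of the 2 tested for Ascl5Mut/Mut and 0 of the 3 tested for Ascl5Mut/WT, and 0 reached an unadjusted p under 0.05, with the shares over all tested genes as given for the zinc list. Of the genes above 0, 3 were lower and 2 higher without overlap in Ascl5Mut/Mut, against 13.5% and 13.3% of all genes above 0. In Ascl5Mut/WT 2 were lower and 5 higher, against 11.8% and 14.5% of all genes above 0. These counts are near those shares. The medians of the tested genes were -0.19 and 0.82. Gnas, the stimulatory G protein subunit, had 3367 and 2186 in Ascl5Mut/Mut, against 1960.4 and 3861 in Ascl5WT/WT, and 5677 and 4649.9 in Ascl5Mut/WT, against 2015 and 4058. Gnb2, a G protein beta subunit, had 277 and 2181 in Ascl5Mut/Mut, against 2485 and 459 in Ascl5WT/WT, and 1884 and 1725 in Ascl5Mut/WT, against 2537 and 479. Itpr3, a calcium release channel downstream of phospholipase C, had 0 and 984 in Ascl5Mut/Mut, against 435 and 1045 in Ascl5WT/WT, and 2521 and 1698 in Ascl5Mut/WT, against 443 and 1088. For Gnas and Itpr3 both Ascl5Mut/WT libraries lay above both Ascl5WT/WT libraries, as for 21.1% of all tested genes, and neither passed limma (adjusted p = 0.617 and 0.594).

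Relatives and partners of LYPD1 were sparse too. Of 29 other Ly6/uPAR genes, 9 were above 0 in at least 1 library of each table and 1, Ly6e, was tested and not called in either comparison (limma adjusted p = 0.958 and 0.722). Ly6e, a broadly made surface protein, had 1674 and 2062 in Ascl5Mut/Mut, against 988 and 2721 in Ascl5WT/WT, and 1262 and 411 in Ascl5Mut/WT, against 1008 and 2839. Ly6d, a marker of stratified squamous epithelium, had 405 and 3101 in Ascl5Mut/Mut and 745 and 2929 in Ascl5Mut/WT, against 0 in every Ascl5WT/WT library. It was higher in replicate 2 of each mutant genotype, as were the mucosal, dental epithelium and myeloid sums. The source of Ly6d was not tested. Lypd6b had 0 and 0 in Ascl5Mut/Mut, against 654 and 0 in Ascl5WT/WT, and 507 and 402 in Ascl5Mut/WT, against 676 and 0.

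Of 16 nicotinic acetylcholine receptor subunits, 6 were above 0 in the Ascl5Mut/Mut table and 4 in the Ascl5Mut/WT table. Chrnb1, the beta subunit of the muscle receptor, was the 1 gene tested and was not called (limma adjusted p = 0.963 and 0.772). It had 976 and 3129 in Ascl5Mut/Mut, against 1203 and 3121 in Ascl5WT/WT, and 4158 and 2302 in Ascl5Mut/WT, against 1228 and 3260.2. Chrna2, an alpha subunit of neuronal receptors, had 0 and 1507 in Ascl5Mut/Mut, against 0 and 119 in Ascl5WT/WT, and 887 and 961 in Ascl5Mut/WT, against 0 and 124. Chrna1, the alpha subunit of the muscle receptor, had 698 and 0 in Ascl5Mut/Mut, against 437 and 359.99 in Ascl5WT/WT, and 376 and 0 in Ascl5Mut/WT, against 445 and 375.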

How the data were processed

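The authors deposited normalized gene counts, which are handled here as a linear signal, in 2 tables that cover 4 libraries each. Per the submitters' processing notes, the genome was mm10 and DESeq2 was used, with no version. The aligner, annotation and strand setting were not given in the sources used here. limma 3.58.1 (R 4.3.3) with an intensity trend was fitted to log2(normalized count + 120) within each table, keeping genes whose table mean reached 1000. Fold changes of low genes are understated on that scale. Calls were two-sided at a Benjamini-Hochberg adjusted p under 0.05, and SEs beside limma p-values are limma's. Values of the members are given without a test, with SEs from the spread of the libraries. With 2 libraries a group, the smallest two-sided p of an exact permutation test is 0.33. The number of reads counted in genes per library was estimated from the step of low values. Gene models came from GENCODE M21, and 11 gene names damaged in 1 table were left out where tables were joined. Named genes were the members, the called genes of every list, the 3 highest genes of each list on zinc, receptors and signalling (not of the marker lists, although the rule covered them), the 3 nearest genes on each side, the 5 nearest profiles and 4 opposite-strand pairs. Pax9 and the other marker genes named without a limma call were named after their values were seen. The members, lists and settings were chosen with earlier results of these data known, the pseudocount and filter after call counts under several combinations had been viewed. The limma script was tested on simulated data.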

Additional observations from a re-analysis of the deposited data

Results flagged for a closer look

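Slc39a7, a zinc transporter of the endoplasmic reticulum, lay on opposite sides of wild type in the mutant genotypes. Its log2 difference was -1.02 in Ascl5Mut/Mut, where both libraries lay below both Ascl5WT/WT libraries, and 0.79 in Ascl5Mut/WT, where both lay above. The difference between the genotypes was not tested, and the tables were normalized separately.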

How the results depend on the processing

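The number of genes called, 20 for Ascl5Mut/Mut and 13 for Ascl5Mut/WT, depended on the settings. It was 4 and 8 with a pseudocount of 1. With a mean of at least 10 and a pseudocount of 1 limma called 0 and 0, with 1280 and 1055 at an unadjusted p under 0.05. With no filter on low values it was 1 and 12. Leaving out 1 library gave 0 to 33 calls for Ascl5Mut/Mut and 0 to 34 for Ascl5Mut/WT. The counts were 0 without either library of the mutant genotype, with 262 and 224 genes at an unadjusted p under 0.05 for Ascl5Mut/Mut and 113 and 127 for Ascl5Mut/WT. Leaving out Ascl5WT/WT replicate 1 gave 7 calls in the Ascl5Mut/Mut table and 20 in the Ascl5Mut/WT table, and leaving out replicate 2 gave 33 and 34. With the replicate number as a block it was 36 and 37, but deviations of same-numbered libraries correlated at -0.01 and 0.02, so the data give no sign that the numbers pair the libraries. The cause of these changes was not tested.

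The log2 difference of Gpr39 in Ascl5Mut/Mut was -4.73 to -4.44 with 1 library left out and -4.16 with a pseudocount of 1000. That of both genes summed was -4.50 with a pseudocount of 1 and -4.06 with 1000. For Lypd1 in Ascl5Mut/Mut it was -4.95 with a pseudocount of 1, and -2.82 to -0.33 with 1 library left out. In Ascl5Mut/WT it was 0.0042 without Ascl5Mut/WT replicate 2, so its direction rests on single libraries. Rescaling each library to the same total and the replicate block moved no member by more than 1 SD between replicates. The low number of reads counted in genes, an estimated 90476 to 117399 per library, limits every statement on Lypd1.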
